A study of Homo sapiens with 6 samples.

Results

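Coronins and regulators of the Arp2/3 complex were examined in cells labelled EA.hy926 and treated with LPS (lipopolysaccharide). LPS is a glycolipid from the outer membrane of Gram-negative bacteria. The set holds 10 of the 19755 protein-coding genes of the deposited gene table. They are the coronins CORO1B, CORO1C and CORO7, the Arp2/3 inhibitor ARPIN, the read-through gene ARPIN-AP3S2, the Arp2/3 subunits ARPC1B, ARPC2, ACTR2 and ACTR3, and the Arp2/3 activator CTTN. The set was chosen by the FPKM values of these same libraries, in which CORO1C and ARPIN-AP3S2 were lower with LPS. The LPS against control values of the members are therefore a description and carry no p-value, and where a member is said to lie past the threshold or not, this only places it within the fit over all genes.

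RNA-seq covered 3 libraries labelled LPS (1000 ng/ml, 12 h) and 3 control libraries of the same time label. The sample titles name EA.hy926 as well as HUVECs, the endothelial cells of the umbilical vein. EA.hy926 is an established hybrid of a HUVEC and the lung carcinoma line A549, so it is not a primary endothelium. Cells of both groups were grown in DMEM with 10% fetal bovine serum. The treatment field of all 6 samples reads "Sepsis", and the genotype field reads "WT" for controls and "LPS-induced" for the LPS libraries, so groups were taken from the titles. No label says that replicates were separate cultures, and p-values therefore reflect only the spread among these libraries, which may be technical. Levels are FPKM, fragments scaled to transcript length and to mapped fragments, and total read depth is unknown.

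The Arp2/3 complex binds the side of an existing actin filament and starts a new filament there, which gives the branched networks that push the cell edge forward. ARP2 and ARP3, the products of ACTR2 and ACTR3, form the start of the new filament, and the ARPC subunits hold them to the mother filament. WASP and WAVE proteins activate the complex, cortactin (CTTN) stabilises the branches, and arpin inhibits the complex through an acidic tail. Type I coronins bind both actin filaments and the Arp2/3 complex and take part in the turnover of branches together with cofilin. In endothelium this machinery serves junction maintenance, migration and the closing of gaps between cells.

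Both genes that led to the choice have more than 1 transcription start nearby, and these starts are shown here. CORO1C-201 and CORO1C-202, described below, differ by the CORO1C starts. Not every transcript described below begins in a window shown. Neither end of CORO1C-205, of CORO1C-209 or of the assembled transcript at the AP3S2 locus lies in one. The windows run from 250 bases before to 50 bases after each start, as listed by RefSeq for GRCh38.p14, and capitals mark the 50 bases from the start on. All 4 are read on the minus strand. Rows were found for 8 of the 10 members, and ARPC1B and CTTN had none.
CORO1C, upstream start, chr12:108731469-108731768: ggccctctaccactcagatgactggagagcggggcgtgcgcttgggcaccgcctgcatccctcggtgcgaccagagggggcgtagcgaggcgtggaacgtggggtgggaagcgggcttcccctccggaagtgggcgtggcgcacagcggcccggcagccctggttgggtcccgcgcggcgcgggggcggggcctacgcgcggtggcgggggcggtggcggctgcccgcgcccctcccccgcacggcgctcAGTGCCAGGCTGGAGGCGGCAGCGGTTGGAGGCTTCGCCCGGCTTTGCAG
CORO1C, start inside the first intron, chr12:108702949-108703248: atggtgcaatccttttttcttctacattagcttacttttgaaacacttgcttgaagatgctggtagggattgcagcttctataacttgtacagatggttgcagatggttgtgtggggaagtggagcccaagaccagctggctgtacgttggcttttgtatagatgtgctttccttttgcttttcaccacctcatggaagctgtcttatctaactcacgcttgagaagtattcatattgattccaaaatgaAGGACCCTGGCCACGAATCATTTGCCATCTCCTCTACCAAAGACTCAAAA
ARPIN and ARPIN-AP3S2 start, chr15:89912903-89913202: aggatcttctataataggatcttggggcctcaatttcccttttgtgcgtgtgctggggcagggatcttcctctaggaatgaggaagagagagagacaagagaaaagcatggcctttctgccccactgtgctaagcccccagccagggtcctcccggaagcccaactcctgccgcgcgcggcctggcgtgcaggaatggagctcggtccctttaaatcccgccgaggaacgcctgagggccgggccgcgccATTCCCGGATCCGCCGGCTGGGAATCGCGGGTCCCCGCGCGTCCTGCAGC
AP3S2 start, chr15:89893945-89894244: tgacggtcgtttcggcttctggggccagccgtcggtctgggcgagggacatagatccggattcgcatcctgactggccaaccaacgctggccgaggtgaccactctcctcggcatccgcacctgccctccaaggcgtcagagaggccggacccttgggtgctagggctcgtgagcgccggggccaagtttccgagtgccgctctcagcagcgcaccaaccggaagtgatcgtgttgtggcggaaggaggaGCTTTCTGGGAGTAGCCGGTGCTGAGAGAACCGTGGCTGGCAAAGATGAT

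The upstream CORO1C start, 78 bases downstream of the annotated first base of CORO1C-201, lies in a window of 76.3% G and C with 37 CpG dinucleotides. The start used by CORO1C-202, inside the first intron of CORO1C-201, lies in a window of 42.7% G and C with 3 CpG dinucleotides. The median of 35116 RefSeq windows of this length was 58.7% G and C. On either strand, the letters GGGCGG were found in the first of these windows and in none of the other 3, against 45% of all windows, and TATAAA in none of the 4, against 11.5%. These are letter matches and no evidence of a bound factor.

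ARPIN and ARPIN-AP3S2 share their window, so a promoter cannot tell them apart, and what sets them apart is the join between their exons. In ARPIN-AP3S2-201, the annotated coding read-through transcript, exon 5 from ARPIN is joined to exon 6 from AP3S2. The 15 bases on each side, from GENCODE 29 on GRCh38 and with the AP3S2 side in capitals, are shown as the join of this transcript. Whether the other annotated ARPIN-AP3S2 transcripts use the same join was not checked.
ARPIN-AP3S2-201 junction: gaggacgaggagtggCCAGAAGAAATTCAA

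Protein-coding genes summed to between 256257 and 264878 FPKM in the LPS libraries and between 256047 and 260730 FPKM in the controls, and 11078 to 11179 genes per library reached 1 FPKM. All 12 endothelial markers (PECAM1, CDH5 and VWF among them) passed the filter on low values, and they summed to 600 to 710 FPKM with LPS and 475 to 604 in controls. Of 12 epithelial and A549 markers, 6 passed the filter, and the list summed to 98.3 to 122 FPKM with LPS and 137 to 147 in controls. These 6 were keratins and the enzyme genes AKR1C1 and CPS1, while EPCAM, CDH1 and SFTPB were at most 0.0693 FPKM in any library. Fibroblast and smooth muscle markers were high in both groups, at 3780 to 4320 FPKM with LPS and 3950 to 4290 in controls, led by COL1A1. Their sum was above that of the endothelial markers in every library. Whether the cells are those named in the titles was not tested. Leukocyte markers summed to 4.56 to 7.62 FPKM with LPS and 4.34 to 8.05 in controls, with PTPRC, CD3E, CD163, S100A8 and NKG7 listed at 0 throughout. No marker of the 4 lists passed the threshold in limma over all genes, with 3 endothelial markers higher and 5 epithelial and 2 fibroblast markers lower at an unadjusted p under 0.05. Against the rest of its list, the keratin gene KRT7 was higher in every LPS library, at 18.8, 20.2 and 32.5 FPKM with LPS and 17.7, 17.4 and 15.9 in controls.

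With LPS, CORO1C fell to 53.6% of its control mean, and ARPIN-AP3S2 stood at 8.67% of its control mean, while the Arp2/3 subunits, CTTN and ARPIN stood between 95.9 and 107% of theirs. Of the other coronins, CORO7 was somewhat higher with LPS and CORO1B varied too much among libraries to place. All 10 members averaged 0.5 FPKM or more and were tested. CORO1C was the only member past an adjusted p of 0.05 in limma with Benjamini-Hochberg adjustment over all 12068 genes, where 0.058% of genes were past it, 0.0166% lower and 0.0414% higher. The contrast chose the members, so nothing is read from that count. The 3 LPS libraries lay outside the range of the controls for 4 members, lower for CORO1C and ARPIN-AP3S2 and higher for CORO7 and ARPC1B. Of all genes tested, 17.4% did not overlap, 8.73% lower and 8.68% higher. The median log2 change of the members was 0.00, against −0.01 over all genes. In bulk RNA, fewer cells of a type and less RNA per cell cannot be told apart.

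**Figure D1:**
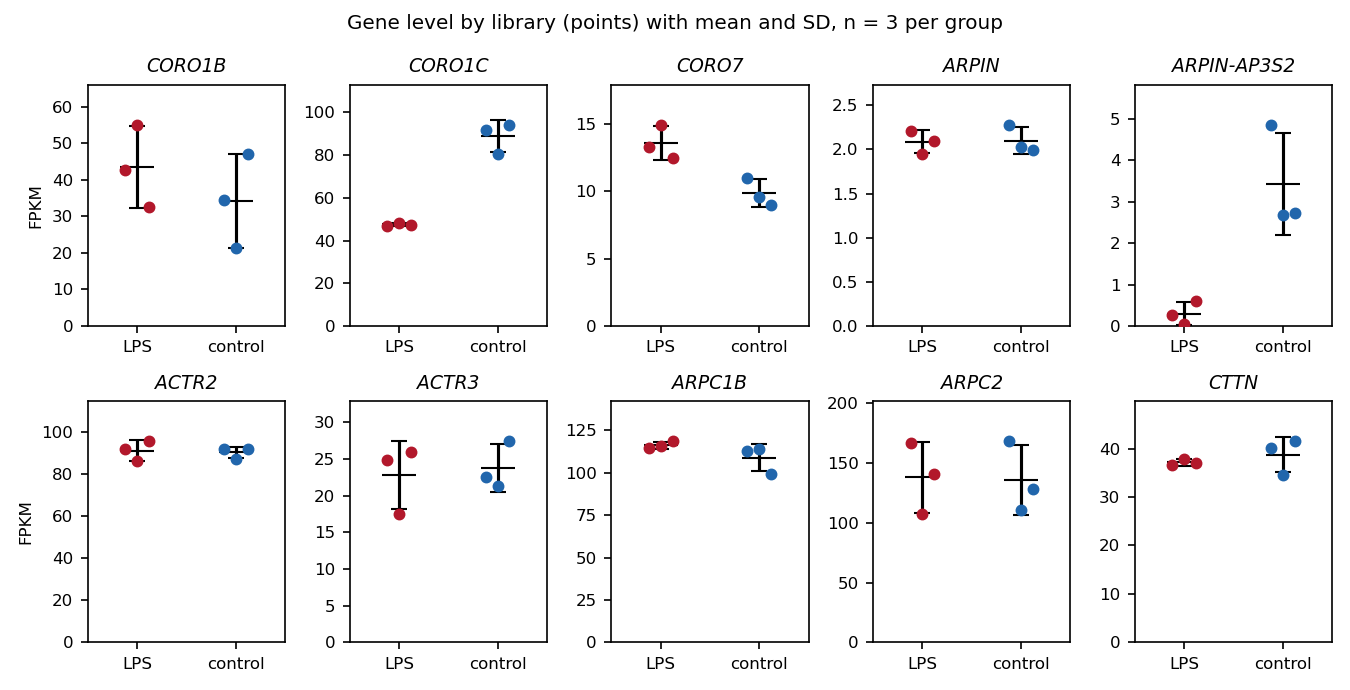
FPKM of the 10 genes in each library (points), with the mean and SD as bars (n = 3 per group) and a separate scale per panel, LPS left and control right. CORO1C at 47.0 to 48.4 FPKM with LPS sits below 80.4 to 94.2 in controls, ARPIN-AP3S2 is near 0 with LPS, and most other members overlap between groups.

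Among the coronins, CORO1C (ENSG00000110880, chr12:108645109-108731596, GRCh38) is a broadly expressed type I coronin of lamellipodia that also acts in endosome fission. Its level was 47.0, 48.4 and 47.4 FPKM in LPS libraries 1 to 3 and 91.9, 80.4 and 94.2 FPKM in control libraries 1 to 3. All 3 LPS values lay below all 3 control values, and the LPS libraries lay close together. The means were 47.6 ± 0.738 FPKM with LPS and 88.8 ± 7.40 FPKM in controls (SD, n = 3 each), a log2 change of −0.89 (SE 0.09) on log2(FPKM + 0.5). Of the 12068 genes, 85 had a lower log2 change. The call was lost when any 1 of the 6 libraries was left out, with log2 changes of −0.96 to −0.85. It was also lost with no filter on low values and with the replicate number as a block in the fit. The summed epithelial and A549 markers also stood lower in every LPS library than in every control library, although KRT7 of that list stood higher. All 12 endothelial markers had log2 changes above 0. Of 9 tested fibroblast and smooth muscle markers, 6 had log2 changes below 0 and 3 above. The part of these markers in the result was not tested.

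CORO1B, a second type I coronin that promotes branch turnover at the leading edge, was the least stable member among the coronins. LPS libraries 1 to 3 had 42.6, 55.1 and 32.6 FPKM and control libraries 1 to 3 had 34.5, 21.3 and 47.0 FPKM in controls. The groups overlapped, with means of 43.5 ± 11.3 FPKM with LPS and 34.3 ± 12.9 FPKM in controls (SD, n = 3 each). Its residual SD on the log2 scale was 0.48, against 0.0879 for CORO1C and a median of 0.193 over all genes tested. With 1 library left out at a time, its log2 change lay between 0.08 and 0.64.

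CORO7, a coronin with a doubled repeat domain that acts at the Golgi, was listed at 13.3, 14.9 and 12.5 FPKM with LPS and at 11.02, 9.54 and 9.004 FPKM in controls. Every LPS library was above every control library, and the log2 change of 0.44 (SE 0.12) did not pass the threshold. CORO7 shares 11681 bases with VASN on the opposite strand, and VASN, which encodes vasorin, a membrane protein that binds TGF-beta, was listed at 23.4, 27.9 and 21.2 FPKM with LPS and 27.0, 30.9 and 28.3 in controls. It is not stated whether the authors counted by strand, so reads of CORO7 and VASN, and of CORO7 and CORO7-PAM16, may be split between them.

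The ratio, share and sum given next all contain CORO1C, which was chosen because it was lower with LPS, so they are a description. They were not among the planned results, and CORO1B varied widely among libraries. CORO1C over CORO1B was 1.10, 0.878 and 1.45 in LPS libraries 1 to 3, against 2.66, 3.78 and 2.004 in control libraries 1 to 3, and the groups did not overlap. In LPS library 2, CORO1B was above CORO1C, which was seen in no other library. CORO1C made up 45.9 ± 5.19% of the summed FPKM of the 3 coronins with LPS and 67.3 ± 4.80% in controls (SD, n = 3 each). Their sum was 105 ± 13.1 FPKM with LPS and 133 ± 19.9 FPKM in controls, and it overlapped between groups.

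At the transcript level, the lower CORO1C signal was in its full-length transcript, while 2 short transcripts, CORO1C-205 and CORO1C-209, lay above the controls. Neither the full-length transcript nor the short ones passed the threshold over all transcripts. CORO1C-201, with 11 exons and 3892 bases, led the gene in all 6 libraries. Its level was 34.4, 35.1 and 33.2 FPKM with LPS and 87.3, 63.5 and 87.4 FPKM in controls, a log2 change of −1.19 (SE 0.16). CORO1C-202, which replaces the first exon by the one that starts in the first intron of CORO1C-201, was listed at 0 in all 3 LPS libraries and at 0.0327, 11.7 and 0 FPKM in controls. Only control library 2 thus held a sizeable level of it. That library was also the lowest of the controls for CORO1C-201.

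CORO1C-201 and CORO1C-202 together came to 34.4, 35.1 and 33.2 FPKM with LPS and 87.4, 75.1 and 87.4 FPKM in controls, a ratio of means of 0.411. The other CORO1C transcripts together stood at 12.5, 13.3 and 14.2 FPKM with LPS and 4.50, 5.26 and 6.88 FPKM in controls, a ratio of means of 2.41. Both sums were without overlap between the groups, in opposite directions. Neither sum was among the planned results. With CORO1C-202 counted among the others instead, these came to 12.5, 13.3 and 14.2 FPKM with LPS and 4.53, 16.9 and 6.88 FPKM in controls, which overlap through control library 2 (ratio of means 1.41). The full-length pair held 73.3, 72.5 and 70.0% of the gene's FPKM with LPS and 95.1, 93.5 and 92.7% in controls.

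The largest of the short transcripts was CORO1C-205, a partial coding transcript of 5 exons and 899 bases. This transcript stood at 6.51, 7.84 and 5.98 FPKM with LPS and at 1.28, 1.34 and 2.11 FPKM in controls, a log2 change of 1.82 (SE 0.23). CORO1C-209, an intron-retaining transcript of 683 bases in the authors' long noncoding class, was listed at 1.31, 1.68 and 2.69 FPKM with LPS and 0.206, 0.825 and 0.474 FPKM in controls. Both were higher in every LPS library than in every control library. CORO1C-211, another intron-retaining transcript, overlapped between groups at 2.13, 2.15 and 3.13 FPKM with LPS and 1.18, 1.86 and 2.53 FPKM in controls. The noncoding CORO1C-218 and CORO1C-216 also overlapped, with log2 changes of 0.32 (SE 0.28) and 0.38 (SE 0.41). Of the 19 CORO1C transcripts, 7 passed the filter on low values and 6 were listed at 0 in every library.

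The deposited gene value is the plain sum of its transcripts' FPKM, which held for all 10 members and for 61556 of 61556 annotated genes within 0.001 FPKM. A short transcript counts in such a sum as much as a long one at the same FPKM. With each transcript's FPKM multiplied by its length in kilobases, CORO1C came to 144 ± 3.63 with LPS and 329 ± 27.5 in controls (SD, n = 3 each). That ratio was 0.438, and the log2 change −1.18, against −0.89 from the deposited gene values. This weighting was chosen after the values were seen.

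**Figure D2:**
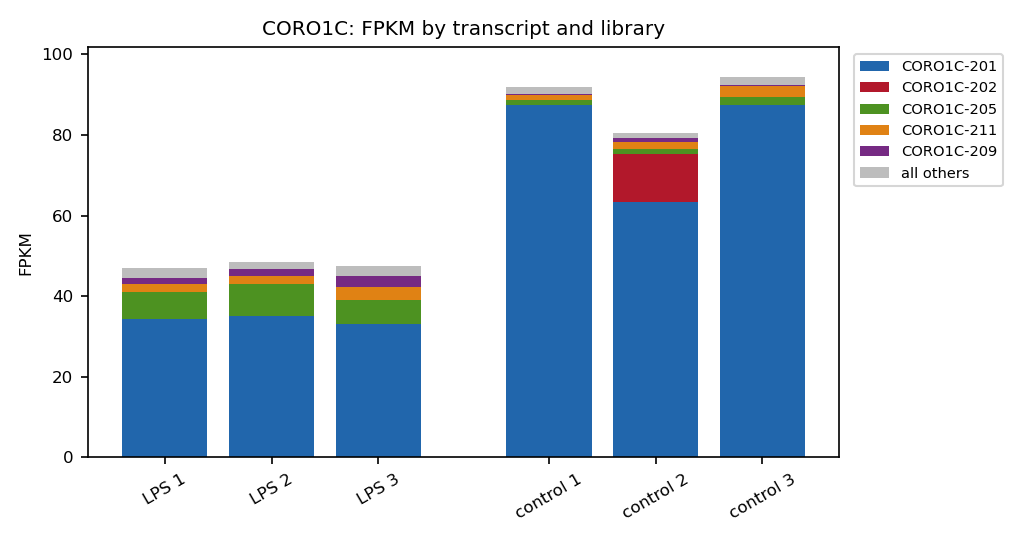
Stacked FPKM of CORO1C transcripts in each library, LPS libraries left and control libraries right, with the gene value as the height of each bar. CORO1C-201 is at 33.2 to 35.1 FPKM in the LPS libraries, CORO1C-205 is thicker there than in controls, and CORO1C-202 stands out in control 2 with 11.7 FPKM.

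Most of the value listed for ARPIN-AP3S2 came from a transcript that does not join the 2 genes. ARPIN-AP3S2 (chr15:89830599-89912882, GRCh38) was listed at 0.259, 0.0347 and 0.599 FPKM with LPS and at 4.86, 2.69 and 2.74 FPKM in controls. The groups did not overlap, the means were 0.297 ± 0.284 FPKM with LPS and 3.43 ± 1.24 FPKM in controls (SD, n = 3 each), and the log2 change was −2.32 (SE 0.31). Only 3 of the 12068 genes had a lower log2 change, yet ARPIN-AP3S2 did not pass the threshold. On this log scale the change of so low a gene is understated and depends on the pseudocount, with −3.39 at 0.1 and −1.76 at 1.

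In each library most or all of this signal was a single assembled transcript without an Ensembl identifier, listed at 0.259, 0.0271 and 0.599 FPKM with LPS and 4.86, 2.68 and 2.74 FPKM in controls. It runs from 89830599 to 89894638 on chromosome 15, which are the start and end of AP3S2, and it ends 367 bases short of the near edge of ARPIN. It therefore holds no exon of ARPIN and cannot contain the junction printed above. The 4 annotated ARPIN-AP3S2 transcripts summed to 0, 0.00760 and 0 FPKM with LPS and to 0, 0.00364 and 0 FPKM in controls. The data thus go against reading this member as an Arp2/3 regulator. Its value is that of a transcript at the locus of AP3S2, which encodes a sigma subunit of the AP-3 adaptor that sorts cargo to lysosomes.

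The leading annotated transcript of AP3S2 moved the other way. AP3S2-201 was listed at 6.70, 6.57 and 4.96 FPKM with LPS and at 1.24, 4.46 and 3.15 FPKM in controls, with every LPS library above every control library. Its log2 change of 1.05 (SE 0.41) did not pass the threshold (limma, adjusted p = 0.819). With 1 library left out at a time, that change lay between 0.62 and 1.37. AP3S2-201 and the assembled transcript together came to 6.96, 6.59 and 5.56 FPKM with LPS and 6.10, 7.14 and 5.89 FPKM in controls. Their sum averaged 6.37 ± 0.722 FPKM with LPS and 6.38 ± 0.671 FPKM in controls (SD, n = 3 each), so the groups overlapped and the ratio of means was 0.999.

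The share of the assembled transcript in the summed FPKM of AP3S2 and ARPIN-AP3S2 was 2.78, 0.326 and 7.97% with LPS and 54.7, 29.8 and 25.4% in controls. AP3S2-201 held 72.0, 79.0 and 66.0% of it with LPS and 13.9, 49.5 and 29.3% in controls. The 2 genes summed to 9.30, 8.31 and 7.52 FPKM with LPS and 8.89, 9.004 and 10.8 FPKM in controls, a log2 change of −0.18 with overlap. AP3S2 itself, named after its values were seen, was listed at 9.04, 8.27 and 6.92 FPKM with LPS and 4.03, 6.32 and 8.02 FPKM in controls, a log2 change of 0.41 (SE 0.23) that did not pass the threshold (limma, adjusted p = 0.584) and lay between 0.16 and 0.62 with 1 library left out at a time. Of the smaller AP3S2 transcripts, the intron-retaining AP3S2-209 was below the controls in every LPS library, at 0.241, 0.180 and 0.483 FPKM with LPS and 1.05, 0.566 and 1.45 FPKM in controls, and AP3S2-202 overlapped with a log2 change of 0.02. The lower ARPIN-AP3S2 value thus stood beside a higher AP3S2-201 value at the same locus, and whether the 2 are related was not tested. The sums of AP3S2 and ARPIN-AP3S2 values were not among the planned results.

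**Figure D3:**
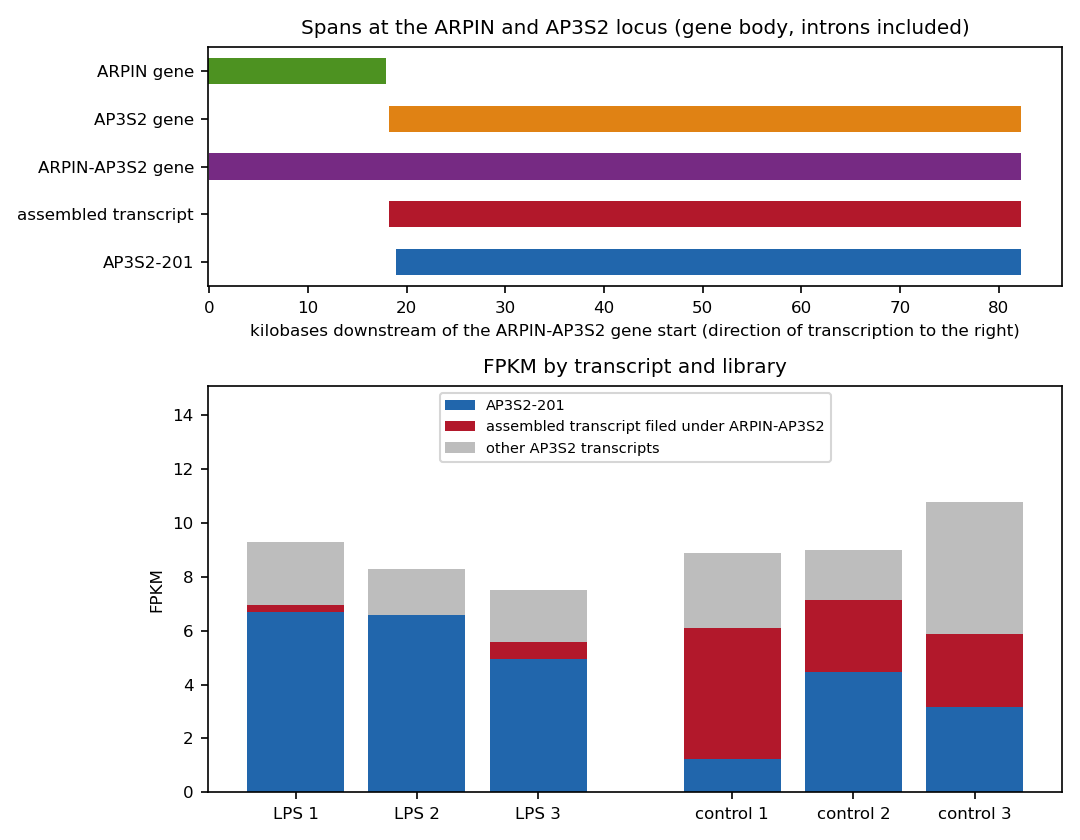
Top, spans of 3 genes and 2 transcripts in kilobases downstream of the ARPIN-AP3S2 gene start, introns included. Bottom, stacked FPKM of AP3S2-201, the assembled transcript filed under ARPIN-AP3S2 and other AP3S2 transcripts in each library, LPS left and control right; the assembled transcript shares the span of AP3S2 and not of ARPIN, and it takes 25.4 to 54.7% of the bar in controls.

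ARPIN, the gene of the inhibitor itself, overlapped between groups. LPS libraries 1 to 3 had 2.21, 1.95 and 2.09 FPKM and control libraries 1 to 3 had 2.28, 2.02 and 1.997 FPKM, with means of 2.09 ± 0.131 FPKM with LPS and 2.10 ± 0.155 FPKM in controls (SD, n = 3 each). The log2 change was −0.01 (SE 0.13), and it lay between −0.04 and 0.04 with 1 library left out at a time. ARPIN-201, the full-length transcript with 6 exons, was listed at 2.17, 1.85 and 1.89 FPKM with LPS and 1.85, 1.63 and 1.36 FPKM in controls. ARPIN-203, a partial coding transcript of 2 exons, was lower in every LPS library, at 0.0464, 0.0911 and 0.202 FPKM with LPS and 0.431, 0.359 and 0.629 FPKM in controls. With a mean of 0.293 FPKM over all libraries, ARPIN-203 did not pass the filter on low values and was not tested. Since ARPIN-AP3S2 lay above ARPIN in every control library and below it in every LPS library, the 2 exchanged the last places in the order of the members.

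Of the 4 Arp2/3 subunits, 3 were among the most abundant members, and none of the 4 passed the threshold. ARPC2, the large scaffold subunit that holds the complex together, was listed at 166, 107 and 141 FPKM with LPS and at 168, 111 and 128 FPKM in controls. In both groups library 1 was highest and library 2 lowest, and the groups overlapped almost whole. Its means were 138 ± 29.9 FPKM with LPS and 136 ± 29.5 FPKM in controls (SD, n = 3 each), a log2 change of 0.02 (SE 0.20).

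ARPC1B, the propeller-shaped subunit that contacts the activators, was listed at 115, 116 and 119 FPKM with LPS and at 113, 114 and 99.5 FPKM in controls. The groups did not overlap, but control library 3 gave most of the difference in means, and the log2 change was 0.10 (SE 0.09). ACTR2, which encodes ARP2, was listed at 91.7, 85.8 and 95.4 FPKM with LPS and 91.6, 87.0 and 91.8 FPKM in controls, with a log2 change of 0.01 (SE 0.09). It was the steadiest member, with a residual SD of 0.0624 on the log2 scale.

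ACTR3, which encodes ARP3, was lower in level than its partner ACTR2 in every library. Its values were 24.9, 17.5 and 26.0 FPKM with LPS and 22.6, 21.3 and 27.4 FPKM in controls, with overlap and a log2 change of −0.07 (SE 0.17). The 4 subunits together summed to 368 ± 37.5 FPKM with LPS and 358 ± 32.9 FPKM in controls (SD, n = 3 each). CTTN was listed at 36.6, 37.9 and 36.9 FPKM with LPS and 40.0, 34.6 and 41.5 FPKM in controls, so the LPS values lay inside the range of the controls, and the log2 change was −0.05 (SE 0.10).

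The order of the members by level was nearly fixed. ARPC2 and ARPC1B held the first 2 places in all libraries and exchanged them in the library numbered 2 of each group. CORO1C had rank 4, 5 and 4 in LPS libraries 1 to 3 and rank 3, 4 and 3 in control libraries 1 to 3. With LPS, the range of CORO1B covered both CORO1C and CTTN, so its place there does not hold beyond the spread, whereas in controls CORO1C lay above both in every library. ACTR3 stood below CORO1B in 5 of 6 libraries, and CORO7 had rank 8 in all.

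In 2 members, CORO1B and ARPC1B, the leading transcript changed from library to library without regard to the groups. For CORO1B, the leading transcript was CORO1B-204, CORO1B-202 and CORO1B-201 in LPS libraries 1 to 3 and CORO1B-204, CORO1B-201 and CORO1B-202 in control libraries 1 to 3. CORO1B-202, a coding transcript, was listed at 1.93, 51.8 and 0 FPKM with LPS and at 0.632, 0.00587 and 45.7 FPKM in controls. CORO1B-204, annotated as a target of nonsense-mediated decay, was listed at 34.4, 0 and 3.10 FPKM with LPS and at 25.5, 0.180 and 0 FPKM in controls.

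CORO1B-201, another coding transcript, was listed at 3.86, 0.0255 and 14.1 FPKM with LPS and at 4.47, 17.4 and 0.139 FPKM in controls. The libraries in which it led were those with the lowest CORO1B gene value of each group, and the libraries led by CORO1B-202 had the highest. These 3 transcripts have 11 or 12 exons and 1881 to 1954 bases. Their levels one by one are uncertain, and whether the leading transcript bears on the CORO1B gene value was not tested.

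**Figure D4:**
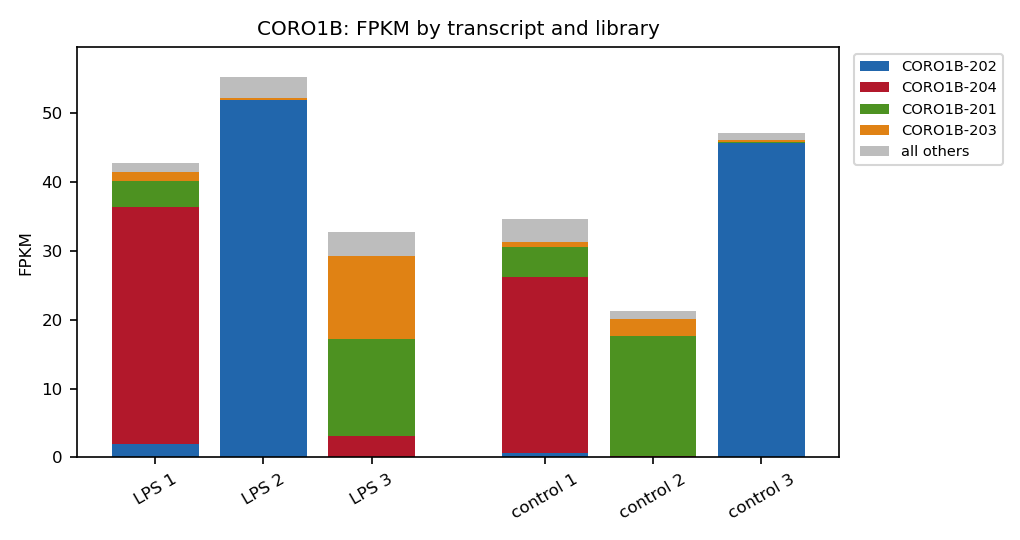
Stacked FPKM of CORO1B transcripts in each library, LPS left and control right. A different transcript leads in each of the 3 libraries of a group, so that CORO1B-202 is 51.8 FPKM in LPS 2 and 45.7 FPKM in control 3 and at most 1.93 FPKM in the other 4 libraries.

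For ARPC1B, the coding transcripts ARPC1B-206 and ARPC1B-212, of 1509 and 1505 bases, exchanged the lead. ARPC1B-206 was listed at 66.5, 37.8 and 79.5 FPKM with LPS and at 29.9, 73.2 and 26.1 FPKM in controls, which overlapped although the gene value hardly moved. ARPC1B-210, a coding transcript of 1715 bases, was below the controls in every LPS library, at 0.129, 0.0968 and 3.05 FPKM with LPS and 8.52, 3.57 and 15.6 FPKM in controls, a log2 change of −2.93 (SE 0.87) not past the threshold. The other members kept 1 leading transcript in all libraries. ARPC2-202 was listed at 149, 89.9 and 64.8 FPKM with LPS and at 120, 97.8 and 111 FPKM in controls. Away from the groups, the intron-retaining ARPC2-209 stood at 44.2 FPKM in LPS library 3 and 31.1 FPKM in control library 1, and at most 8.73 FPKM in the others.

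ACTR2-201, ACTR3-201, CTTN-201 and CORO7-201 each led their gene in all 6 libraries. Log2 changes were 0.01 (SE 0.09) for ACTR2-201, −0.10 (SE 0.23) for ACTR3-201 and −0.02 (SE 0.16) for CTTN-201, all with overlap. CORO7-201 was listed at 11.02, 9.11 and 11.2 FPKM with LPS and at 8.52, 8.30 and 7.41 FPKM in controls, without overlap, as at the gene level. The members have 140 transcripts in the transcript table, of which 53 passed the filter on low values, 27 were listed at 0 in all libraries and 3 were assembled. None was past an adjusted p of 0.05 over all 35727 transcripts tested, where 0.098% were (0.0588% lower and 0.0392% higher). In 7 of them the groups did not overlap, against 12.4% of all transcripts, with 4 lower (6.24% of all) and 3 higher (6.18% of all). Since the same contrast chose the members, nothing is read from these counts.

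Across the rest of the pathway, no gene passed the threshold. The 11 lists hold 89 genes other than the members, of which 82 passed the filter on low values. In limma over all genes, 0 of these passed in either direction, with 2 higher and 4 lower at an unadjusted p under 0.05 and a smallest adjusted p of 0.197. Their median log2 change was −0.02, against −0.01 over all genes tested. With LPS, 7 lay above and 6 below the control range without overlap, against 8.68% higher and 8.73% lower of all genes tested.

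Of the other Arp2/3 subunits, 6 were tested, 2 with a positive and 4 with a negative log2 change. ARPC1A, the alternative of ARPC1B, was listed at 79.0, 83.01 and 83.6 FPKM with LPS and 86.6, 83.04 and 82.9 FPKM in controls. ARPC3 was listed at 46.4, 47.6 and 49.3 FPKM with LPS and 62.3, 49.9 and 51.4 FPKM in controls, lower without overlap (log2 change −0.18, limma adjusted p = 0.605). ARPC5, named after its values were seen, was listed at 39.2, 5.24 and 3.21 FPKM with LPS and 39.0, 40.7 and 3.46 FPKM in controls. Its log2 change of −0.98 (SE 1.12) ran from −2.09 to −0.30 with 1 library left out at a time. Its libraries thus split into high and low ones across the groups, and most of each value was ARPC5-204, a noncoding transcript of 3 exons that was listed at 34.0, 4.79 and 2.12 FPKM with LPS and 36.6, 39.0 and 2.17 FPKM in controls.

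Of the other coronins, all 3 tested had a negative log2 change, but that of CORO2A was only −0.01 (SE 0.16), with overlap between groups. CORO2B, a type II coronin, was listed at 4.37, 4.0 and 3.44 FPKM with LPS and at 5.23, 7.44 and 8.51 FPKM in controls. It lay below the controls in every LPS library, with a log2 change of −0.75 (SE 0.19, limma adjusted p = 0.273). CORO6 averaged 0.479 ± 0.0819 FPKM with LPS and 0.688 ± 0.335 FPKM in controls (SD, n = 3 each), with overlap. CORO1A, the leukocyte coronin, was at most 0.980 FPKM and did not pass the filter.

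Among debranching factors, GMFB, which removes branches by binding Arp2/3, was listed at 10.3, 11.6 and 12.7 FPKM with LPS and 14.3, 13.6 and 15.1 FPKM in controls (log2 change −0.31, SE 0.11, limma adjusted p = 0.429). Its relative GMFG averaged 3.23 ± 0.745 FPKM with LPS and 2.06 ± 0.806 FPKM in controls (SD, n = 3 each). Among activators, WASF2, which encodes WAVE2, averaged 36.5 ± 1.46 FPKM with LPS and 32.0 ± 1.14 FPKM in controls. WASL, which encodes N-WASP, averaged 5.90 ± 0.0660 FPKM with LPS and 6.798 ± 0.406 FPKM in controls (SD, n = 3 each). WASF2 was above and WASL below the controls in every LPS library, and neither passed the threshold.

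The WAVE complex partners BRK1 and CYFIP1 and the GTPases RHOA and RAC1 overlapped between groups. RAC1, which switches on the WAVE complex, averaged 82.0 ± 9.41 FPKM with LPS and 81.2 ± 1.39 FPKM in controls (SD, n = 3 each), and RHOA averaged 220 ± 8.25 FPKM with LPS and 212 ± 9.19 FPKM in controls. The log2 changes were 0.01 for RAC1, 0.05 for RHOA, 0.03 for CYFIP1 and −0.07 for BRK1. Of 11 tested WAVE and WASH partners, 9 had a negative and 2 a positive log2 change.

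In the cofilin pathway, which cuts and recycles filaments, 9 of 12 tested genes had log2 changes above 0 (median 0.16). WDR1, LIMK1, SSH1 and TESK1, 4 of the 12, lay above the controls without overlap, against 8.68% of all genes tested. The list joins genes of different roles, so no direction of cofilin activity is read from these counts. SSH1, the phosphatase that activates cofilin, was named after its values were seen. Its level was 18.4, 12.0 and 16.6 FPKM with LPS and 8.41, 10.49 and 11.6 FPKM in controls, a log2 change of 0.59 (SE 0.19, limma adjusted p = 0.351). SSH1 is the neighbour of CORO1C, on the same strand and 1826 bases beyond the CORO1C start. Cofilin itself (CFL1) was listed at 217, 509 and 304 FPKM with LPS and 506, 541 and 264 FPKM in controls, with wide spread in both groups. CAP1, which recycles actin monomers, overlapped at a log2 change of 0.05.

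The formin FMNL3, also named after its values were seen, had the smallest adjusted p among these genes. Its values were 30.7, 25.2 and 29.5 FPKM with LPS and 20.8, 16.8 and 15.5 FPKM in controls, a log2 change of 0.67 (SE 0.14, limma adjusted p = 0.197). Formins build straight filaments instead of branched ones. VASP and DIAPH1, the most abundant of the elongation list, overlapped between groups, with log2 changes of 0.22 and 0.09.

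Actin itself overlapped between the groups. ACTB averaged 1542 ± 217 FPKM with LPS and 1494 ± 334 FPKM in controls, and ACTG1 1193 ± 92.8 FPKM with LPS and 1039 ± 171 FPKM in controls (SD, n = 3 each). The monomer-binding thymosins TMSB10 and TMSB4X had log2 changes of −0.04 and −0.15, with overlap. Of the AP-3 adaptor subunits, AP3D1 averaged 51.7 ± 6.56 FPKM with LPS and 43.9 ± 0.757 FPKM in controls, and AP3S1, which encodes the other sigma subunit, 36.8 ± 2.90 FPKM with LPS and 40.0 ± 2.63 FPKM in controls (SD, n = 3 each). Both overlapped, and neither passed the threshold.

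**Figure D5:**
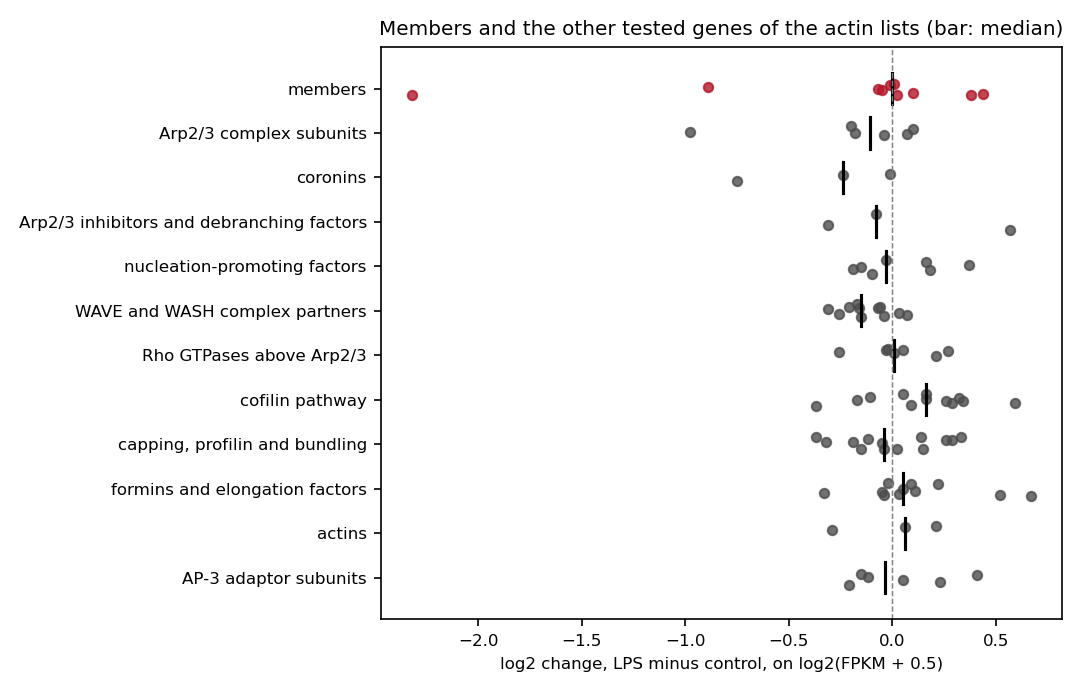
Log2 change, LPS minus control, on log2(FPKM + 0.5) for the 10 members (top row) and for the other tested genes of the 11 actin lists, 1 point per gene and a bar at each median. ARPIN-AP3S2 at −2.32 and CORO1C at −0.89 lie left of the other members, and the other pathway genes run from −0.98 (ARPC5, −2.09 to −0.30 with 1 library left out at a time) to 0.67 (FMNL3).

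The genes with profiles most like CORO1C, by the root mean square difference of their log2(FPKM + 0.5) from it after centring over the 6 libraries, were MGST1, HOXA5 and RASSF3 among 6972 genes with a mean of at least 5 FPKM. The differences were 0.145, 0.157 and 0.168, against 0.451 for CORO1C's own deviation from its mean. MGST1 averaged 25.1 ± 3.02 FPKM with LPS and 42.3 ± 1.58 FPKM in controls, HOXA5 4.31 ± 0.720 FPKM with LPS and 8.05 ± 1.04 FPKM in controls, and RASSF3 10.2 ± 0.643 FPKM with LPS and 15.99 ± 1.07 FPKM in controls (SD, n = 3 each). For ARPIN-AP3S2 the closest were RTL8C, LPAR1 and FCF1, at 0.473, 0.738 and 0.764, against 1.22 for its own deviation, so they resemble it less closely. All these genes were picked for their likeness to a member that was chosen because it was lower with LPS. Their own lower LPS means therefore follow from that choice and are no separate result.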

How the data were processed

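The deposited tables give FPKM per gene and per transcript as calculated by the authors, and no read counts. The submitters' processing notes name HISAT2, StringTie (neither with a version) and the mouse build mm9. Gene identifiers in the files are human, with positions on GRCh38, and GENCODE 29 was used for exons and transcript classes. For depth, strand and quantification parameters, nothing is given in the sources used here. Genes and transcripts averaging 0.5 FPKM or more entered limma 3.58.1 (R 4.3.3) as log2(FPKM + 0.5), with the group alone, eBayes with a trend and Benjamini-Hochberg adjustment over each whole table. The procedure was tested on simulated data. The threshold was an adjusted p of 0.05. A change on this scale understates that of low genes. The members, the gene lists and the tests were chosen with earlier results of these data known. Named were all members, of each list the 2 genes with the highest mean and any past the threshold, and 3 genes most like CORO1C and ARPIN-AP3S2. Transcripts named were those of CORO1C, ARPIN, ARPIN-AP3S2 and AP3S2 averaging 0.5 FPKM or more and the leading one of the other members, and the other transcripts described were chosen after values were seen. Alternatives varied the pseudocount, filter, scaling and replicate block, and left out each library. No 2 libraries held the same set of values.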

Additional observations from a re-analysis of the deposited data

How the results depend on the processing

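Of the 12068 genes, 7 passed the threshold, and 0 did with no filter on low values (1563 at an unadjusted p under 0.05, limma), 0 with a replicate block (1451) and 0 to 8 with 1 library left out. Of the transcripts, 35 passed, against 22 with no filter, 0 with the block (1888 at an unadjusted p under 0.05) and 44 to 60 with 1 library left out. Of the members, 1 passed, against 0 with no filter, 0 with the block and 0 to 0 with 1 library left out. The cause was not tested. Whether the replicate numbers pair the libraries cannot be decided from their correlations, since all were weak. Same-numbered libraries deviated together with correlations of 0.017, 0.105 and 0.06, and differently numbered ones with −0.084 to 0.023. Control 1 correlated best with LPS 3. With 1 library left out, log2 changes took both signs for CYFIP1 (−0.01 to 0.06), RAC1 (−0.08 to 0.08), CAP1 (−0.01 to 0.14), TMSB10 (−0.10 to 0.02), DIAPH1 (−0.07 to 0.19) and ACTB (−0.12 to 0.21). They also did for the members ARPC2 (−0.12 to 0.20), ACTR2 (−0.02 to 0.05), ACTR3 (−0.17 to 0.11) and ARPIN (−0.04 to 0.04), and for CORO1B-202 (−1.44 to 2.40), ARPC2-202 (−0.51 to 0.08), ACTR2-201 (−0.02 to 0.05), ACTR3-201 (−0.23 to 0.13), CTTN-201 (−0.14 to 0.07) and AP3S2-202 (−0.11 to 0.19). With assembled transcripts left out, an alternative chosen after seeing the data, 6 genes passed, CORO1C among them, and ARPIN-AP3S2 fell under the filter and has no value. FPKM without depth gives no counting interval, and low transcripts are the least certain.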

Other observations

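ARPIN-AP3S2 was not the only read-through gene with such a value. Of 33 read-through genes that passed the filter on low values, 8 had over 50% of their FPKM in assembled transcripts that lie inside the locus of a single partner gene, and 5 had at least 99%. For those 5 genes, ARPIN-AP3S2 among them, the deposited gene value is almost wholly that of transcripts inside 1 partner.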
